A study of Mus musculus with 12 samples.

Results

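Brown fat of mice that lack Cpt2 in their fat cells was compared with brown fat of control mice after an injection of saline, so without an added stimulus. The comparison rests on 6 of the 12 arrays of the series: the 3 knockout and the 3 wild-type mice that received saline, 1 array per mouse. All rows of the array table that belong to 1 gene were taken, and for each gene the row with the highest mean over the 12 arrays stood for it. This gave 20259 genes, of which 15896 passed a filter on low signal and were tested.

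The series holds 4 groups of 3 mice, wild type or knockout, each given saline or the β3-adrenergic agonist CL316243 (10 mg/kg), and its tissue is the interscapular brown fat pad. Every mouse was a female of the C57BL/6 background, 12 weeks old, and had been kept at 30 °C for 2 weeks, a temperature at which mice need no extra heat from brown fat. Fat was taken 3 h after the injection. Every mouse, controls included, carried floxed Cpt2 alleles (Cpt2f/f). The knockouts also carried Cre driven by the adiponectin promoter (Adiponectin-Cre; Cpt2f/f), which is active in mature fat cells of all depots, so brown and white fat both lose the gene and the other cells of the pad keep it. The controls had no Cre, so no group shows the effect of the Cre itself. The labels do not say whether mice were littermates.

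Cpt2 sits on the inner membrane of mitochondria and turns long-chain acylcarnitines back into acyl-CoA, the last step of the carnitine shuttle, which brings long-chain fatty acids to β-oxidation. Brown adipocytes burn fatty acids in a dense mass of mitochondria, where Ucp1 turns the proton gradient into heat, and at thermoneutrality this activity is low and the tissue takes on more of the look of white fat. Fat tissue also holds macrophages, which take up lipid in lysosomes, and fibroblasts that lay down collagen.

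The sequences below are the start regions, from 250 bases before to 50 bases after the listed start, of 4 genes that the results turn on. Gpnmb, a glycoprotein of macrophage lysosomes, rose more than any other gene outside the immunoglobulin genes and Catspere2. Ctsd, a lysosomal protease, also rose. Sdhd and Ndufs8, subunits of respiratory complexes II and I, fell. They are from RefSeq, build GRCm38.p6, given 5′ to 3′ on the strand of the gene. Gpnmb lies at chr6:49036268-49036567 on the plus strand, Ctsd at chr7:142387778-142388077, Sdhd at chr9:50603800-50604099 and Ndufs8 at chr19:3912725-3913024, the last 3 on the minus strand. Capitals mark matches to any of 4 short motifs on either strand.
Gpnmb: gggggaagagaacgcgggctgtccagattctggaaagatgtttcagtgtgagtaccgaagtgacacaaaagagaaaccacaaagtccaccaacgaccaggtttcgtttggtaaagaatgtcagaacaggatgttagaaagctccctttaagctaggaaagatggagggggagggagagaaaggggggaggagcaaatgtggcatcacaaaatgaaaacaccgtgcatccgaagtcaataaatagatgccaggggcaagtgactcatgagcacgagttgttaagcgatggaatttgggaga
Ctsd: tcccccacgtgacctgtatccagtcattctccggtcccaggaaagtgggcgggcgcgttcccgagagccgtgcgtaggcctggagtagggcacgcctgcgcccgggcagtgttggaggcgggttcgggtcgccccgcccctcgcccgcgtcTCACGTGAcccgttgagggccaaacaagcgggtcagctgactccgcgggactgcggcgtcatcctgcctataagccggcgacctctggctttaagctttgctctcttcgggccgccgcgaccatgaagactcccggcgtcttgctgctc
Sdhd: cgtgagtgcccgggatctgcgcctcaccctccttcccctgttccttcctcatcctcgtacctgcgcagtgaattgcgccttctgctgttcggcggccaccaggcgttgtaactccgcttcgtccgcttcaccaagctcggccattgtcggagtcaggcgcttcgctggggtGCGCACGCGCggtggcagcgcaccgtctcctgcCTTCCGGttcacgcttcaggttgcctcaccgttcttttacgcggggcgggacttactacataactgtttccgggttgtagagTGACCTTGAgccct
Ndufs8: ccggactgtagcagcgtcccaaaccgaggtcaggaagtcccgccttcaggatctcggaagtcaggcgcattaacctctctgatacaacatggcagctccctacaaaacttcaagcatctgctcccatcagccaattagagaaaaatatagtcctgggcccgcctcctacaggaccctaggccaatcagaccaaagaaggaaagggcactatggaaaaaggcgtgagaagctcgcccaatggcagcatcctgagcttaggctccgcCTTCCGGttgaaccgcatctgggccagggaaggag

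The 4 motifs were TCACGTGA, which holds the E-box that the lysosomal regulators of the TFEB family bind, TCAAGGTCA, bound by oestrogen-related receptors, the palindromic NRF1 motif, which leaves 1 base free, and CTTCCGG, bound by ETS factors such as GABP. In Ctsd TCACGTGA lay at -99 to -92 from the start. In Sdhd the NRF1 motif lay, on the other strand, at -79 to -70, CTTCCGG at -46 to -40 and the reverse complement of TCAAGGTCA at 37 to 45. In Ndufs8 CTTCCGG lay at 16 to 22, and Gpnmb held none of the 4. Of the respiratory chain genes that fell, 28 had a start region in the table, of which 8 held CTTCCGG, 6 held the NRF1 motif, 2 (Sdhd and Atp5g3) held TCAAGGTCA and 0 held TCACGTGA. Of the lysosomal and lipid-associated macrophage genes that rose, 17 had one, of which 2 (Ctsd and Ctsa) held TCACGTGA and 0 held the other 3. Among all 32851 start regions the shares were 8.86% for CTTCCGG, 4.60% for the NRF1 motif, 0.423% for TCAAGGTCA and 0.974% for TCACGTGA. Counted by gene, as the 28 and the 17 were, the shares among 27025 genes were 9.93%, 5.19%, 0.466% and 1.12% in that order. In all 13 strings were searched, and these 4 were chosen after their counts were seen. The others, several of which overlap with the 4, were TCACGTG (in 3.77% of all start regions), CACGTG (7.15%), AAGGTCA (4.72%), TGACCT (16.3%), GAGGAAGT (3.20%), TTCCTC (28.3%), CCAAT (37.4%), the full lysosomal CLEAR palindrome (0.326%) and the NRF1 motif with no free base (0.971%). These matches are a description of letters in a window, without any measurement of binding.

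The tissue carried marks of fat and of brown fat in both genotypes. The log2 signal of Adipoq, the fat cell hormone adiponectin, was 11.74, 12.11 and 11.74 in wild types and 12.34, 12.31 and 12.36 in knockouts. Lhx8, a developmental marker of classical brown fat, was at 7.61, 7.67 and 7.57 in wild types and 7.82, 8.26 and 7.76 in knockouts. Skeletal muscle, which lies beside the pad, was present in varying amounts in both genotypes: the mean log2 signal of 25 muscle genes was 8.43, 6.76 and 10.72 in wild types and 6.73, 9.86 and 9.63 in knockouts. Its member Acta1, the actin of skeletal muscle, was at 9.28, 7.10 and 11.26 in wild types and 7.47, 10.19 and 10.09 in knockouts, and none of the 25 was called. Over all tested genes the arrays correlated at Pearson r of 0.937 to 0.981 within a genotype and 0.909 to 0.959 between genotypes.

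Knockout and wild-type brown fat differed without any stimulus. Many genes of macrophages, lysosomes, fibroblasts and collagen rose, and genes of the respiratory chain, the tricarboxylic acid cycle, the mitochondrial ribosome and the brown adipocyte fell. By limma's moderated test 1849 of 15896 genes (11.6%) differed at an adjusted p under 0.05, and such genes are called below: 865 rose (5.44%) and 984 fell (6.19%) in knockouts. Large changes were mostly rises, since 154 genes rose and 45 fell by at least 2-fold. The 3 knockout and 3 wild-type arrays did not overlap in 1823 of the 1849 called genes, against 36.8% of all tested genes. A call with 3 arrays per group makes this likely, and the largest changes named below were picked among genes without overlap. Lack of overlap is thus given below as a description and adds no support to a call. The median difference over all tested genes was -0.055 on the log2 scale. The count depended on single arrays. With knockout array 1, 2 or 3 left out it was 636, 2101 and 581, and with wild-type array 1, 2 or 3 left out it was 639, 1161 and 1508. A core of 462 genes, 269 higher and 193 lower, was called with every saline array left out in turn. Values below are log2 signals, differences are knockout minus wild type after saline ± SE of the fit with n = 3 per group, and a gene is said to hold when its call did so with each of the 6 saline arrays left out in turn. Those fits keep the CL316243 arrays for the spread, and some genes that held lost their call with the 6 saline arrays alone. The gene lists were chosen with earlier results of these data known. Their counts beside the share among all tested genes are a description, and no excess was tested.

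**Figure D1:**
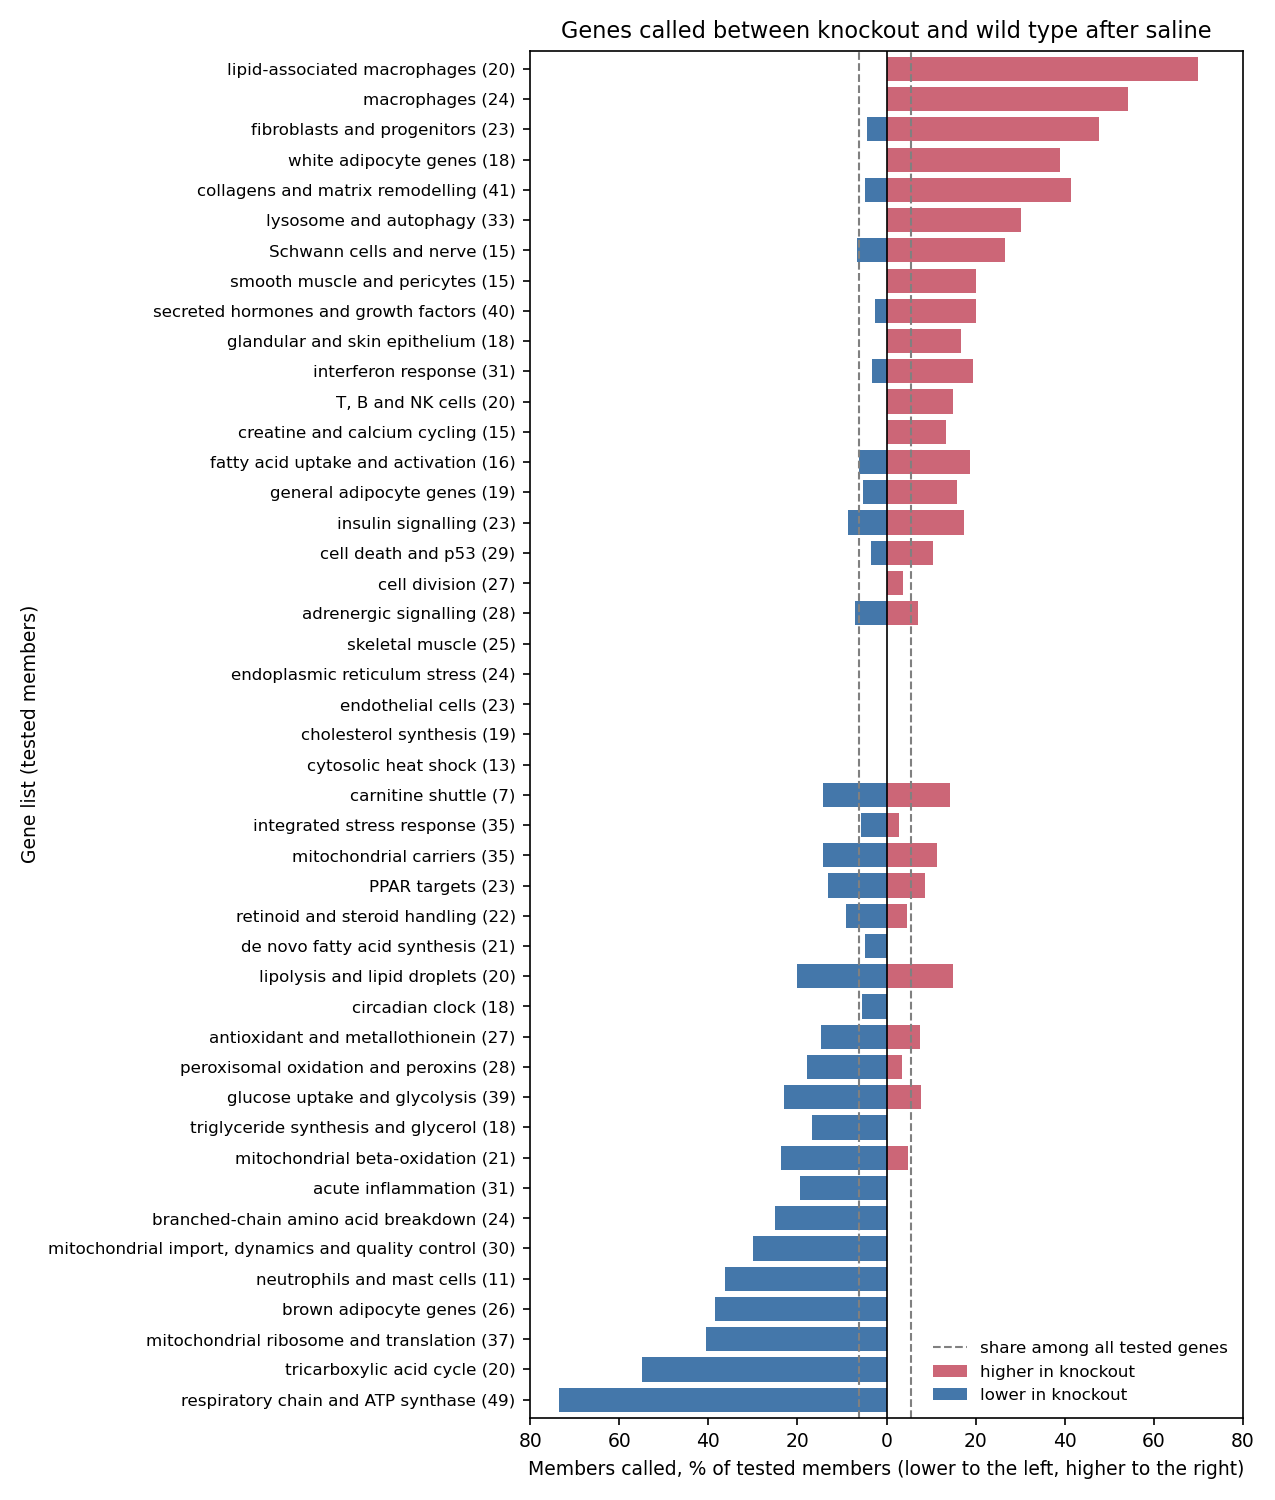
Share of the tested members of each gene list that was called after saline, as a percentage, with genes lower in knockouts to the left and higher to the right. Bars give counts over tested members (number in brackets), the dashed lines the shares among all tested genes, 5.44% higher and 6.19% lower. The lists were chosen with earlier results of these data known, so the bars describe them and test no excess. Macrophage and fibroblast lists lie at the top, with 14 of 20 lipid-associated macrophage genes higher, and the respiratory chain, with 36 of 49 lower, lies at the bottom.

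The targeted gene was lower in every knockout. Cpt2 was at 8.83, 8.99 and 8.75 in wild types and 8.06, 8.20 and 8.06 in knockouts, and it fell by 0.75 ± 0.096 (adjusted p = 0.00207), 1.68-fold, and held. The wild-type and knockout ranges were further apart than the spread within either. Where the probes lie relative to the deleted exons is not given in the sources used here, and in whole tissue fewer cells of a type and less RNA per cell cannot be told apart, here and for every result below. Of the 7 tested carnitine shuttle genes, Cpt2 was the 1 that fell and Cpt1a the 1 that rose. Cpt1a, the liver isoform of the outer-membrane enzyme that makes acylcarnitines and the step before Cpt2 in the shuttle, was at 7.21, 7.23 and 7.03 in wild types and 7.71, 7.73 and 7.70 in knockouts. Its knockout arrays lay close together above all wild types, and it rose by 0.55 ± 0.087 (adjusted p = 0.00452) and held. Slc25a20, the carrier that brings acylcarnitines to Cpt2, was at 10.41, 10.30 and 9.84 in wild types and 8.93, 10.14 and 9.57 in knockouts, a difference of -0.64 ± 0.24 (adjusted p = 0.111) with no call. Without knockout array 2 it was -0.93 with a call, and without knockout array 1 it was -0.33 with no call. Crat, which makes short-chain acylcarnitines, was at -0.25 ± 0.13 (adjusted p = 0.207).

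The clearest rise was in genes of macrophages that handle lipid and debris. Gpnmb was at 6.90, 6.86 and 6.59 in wild types and 10.96, 10.72 and 10.83 in knockouts, a rise of 4.06 ± 0.17 (adjusted p = 1.02e-06) or 16.6-fold, and its arrays within a genotype lay close together. Atp6v0d2, a subunit of the proton pump of lysosomes that is abundant in macrophages and osteoclasts, was at 6.24, 6.39 and 5.93 in wild types and 9.04, 9.03 and 9.08 in knockouts, a rise of 2.86 ± 0.18 (adjusted p = 4.59e-05), 7.27-fold. The 3 knockout arrays lay between 9.03 and 9.08. Trem2, the lipid receptor that defines lipid-associated macrophages, was at 6.77, 6.31 and 6.62 in wild types and 8.43, 8.26 and 8.51 in knockouts and rose by 1.83 ± 0.16 (adjusted p = 0.000282), 3.56-fold. No array of one genotype reached the other genotype in these 3 genes, and all 3 held.

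Of 20 tested genes of lipid-associated macrophages 14 rose and 0 fell, with a median difference of 0.48 (5.44% of all tested genes rose). The count was 10, 13 and 9 without knockout array 1, 2 or 3 and 11 without wild-type array 1, 2 or 3. Ctsk, the collagen-degrading cathepsin K, rose by 1.62 ± 0.24 with signals of 6.15, 6.11 and 6.18 in wild types and 8.18, 7.37 and 7.74 in knockouts. Mmp12, the macrophage elastase, rose by 1.36 ± 0.24. Lgals3, the galectin that marks activated macrophages, was at 8.56, 8.73 and 8.73 in wild types and 9.60, 9.63 and 9.69 in knockouts, a rise of 0.97 ± 0.10 (adjusted p = 0.000747). These 3 held, and in all of them the genotypes stood clear of each other. The tetraspanin Cd9 rose by 0.65 ± 0.11 and held, but was at 0.27 with no call when the mean of its rows was used. Plin2, the coat of lipid droplets, rose by 0.41 ± 0.12 with overlap between the groups, and its call was lost without knockout array 2 or 3 or wild-type array 2 or 3 (0.33, 0.39, 0.40 and 0.31).

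General macrophage genes rose as well, 13 of 24 tested with 0 lower and a median of 0.68. Their count was 5, 14 and 5 without knockout array 1, 2 or 3 and 6, 15 and 9 without wild-type array 1, 2 or 3. Cd68, a lysosomal glycoprotein used to stain macrophages, was at 9.70, 9.73 and 9.59 in wild types and 11.36, 11.06 and 11.36 in knockouts, a rise of 1.58 ± 0.12 (adjusted p = 0.000186), 3.00-fold. Mpeg1, a pore-forming protein of phagocytes, was at 8.13, 9.10 and 8.44 in wild types and 10.07, 9.75 and 10.48 in knockouts and rose by 1.54 ± 0.23. Tyrobp and Fcer1g, the signalling adaptors of Trem2 and of Fc receptors, rose by 0.83 ± 0.14 and 0.75 ± 0.13. These 4 held. Adgre1, an adhesion receptor widely used to mark mouse macrophages, was at 7.73, 8.39 and 7.47 in wild types and 9.21, 8.57 and 9.30 in knockouts, with wild-type array 2 just under knockout array 2. It rose by 1.16 ± 0.25 (adjusted p = 0.0170), but the call was lost without knockout array 1 or 3 or wild-type array 1 (1.07, 1.02 and 1.09). Csf1r, the receptor for the macrophage growth factor, rose by 0.63 ± 0.14 and lost its call without the same arrays (0.50, 0.59 and 0.56). Over the 24 genes the mean log2 signal was 7.96, 8.32 and 7.87 in wild types and 8.76, 8.43 and 8.83 in knockouts, so wild-type array 2 and knockout array 2 lay close to each other. The 20 genes of lipid-associated macrophages gave 8.74, 8.72 and 8.63 against 9.53, 9.54 and 9.59.

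Lysosomal genes rose in part, 10 of 33 tested with 0 lower and a median of 0.23. Without knockout array 1, 2 or 3 the count was 7, 10 and 7, and without wild-type array 1, 2 or 3 it was 7, 10 and 9. The list shares Gpnmb, Ctsd, Ctsl, Ctsb and Lipa with the lipid-associated macrophage list and Cd68 with the macrophage list. Ctss, cathepsin S of antigen-presenting cells, was at 8.70, 9.11 and 8.76 in wild types and 10.32, 10.18 and 10.59 in knockouts and rose by 1.51 ± 0.18 (adjusted p = 0.00160). Galns, which removes sulphate from keratan sulphate, rose by 0.71 ± 0.083 with signals of 7.14, 7.27 and 7.14 in wild types and 7.97, 7.78 and 7.92 in knockouts. Hexa, a β-hexosaminidase subunit, rose by 0.65 ± 0.11, and Lipa, the acid lipase that frees fatty acids from lysosomal lipid, by 0.51 ± 0.097 with signals of 9.08, 9.15 and 8.998 in wild types and 9.53, 9.58 and 9.64 in knockouts. All 4 held without overlap between genotypes. Ctsd, whose start region is printed above, rose by 0.40 ± 0.08 (adjusted p = 0.0118) with signals of 11.16, 11.08 and 11.04 in wild types and 11.57, 11.39 and 11.53 in knockouts, and lost its call without knockout array 1 or 3 (0.37 and 0.39). The regulator Mitf, a TFEB relative, rose by 0.59 ± 0.13 and lost its call without knockout array 1 or 3 or wild-type array 1 (0.47, 0.61 and 0.48). Tfeb itself was at 0.034 ± 0.096 (adjusted p = 0.836). Macrophage genes moved with these lysosomal genes, and their part in the rises was not tested.

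**Figure D2:**
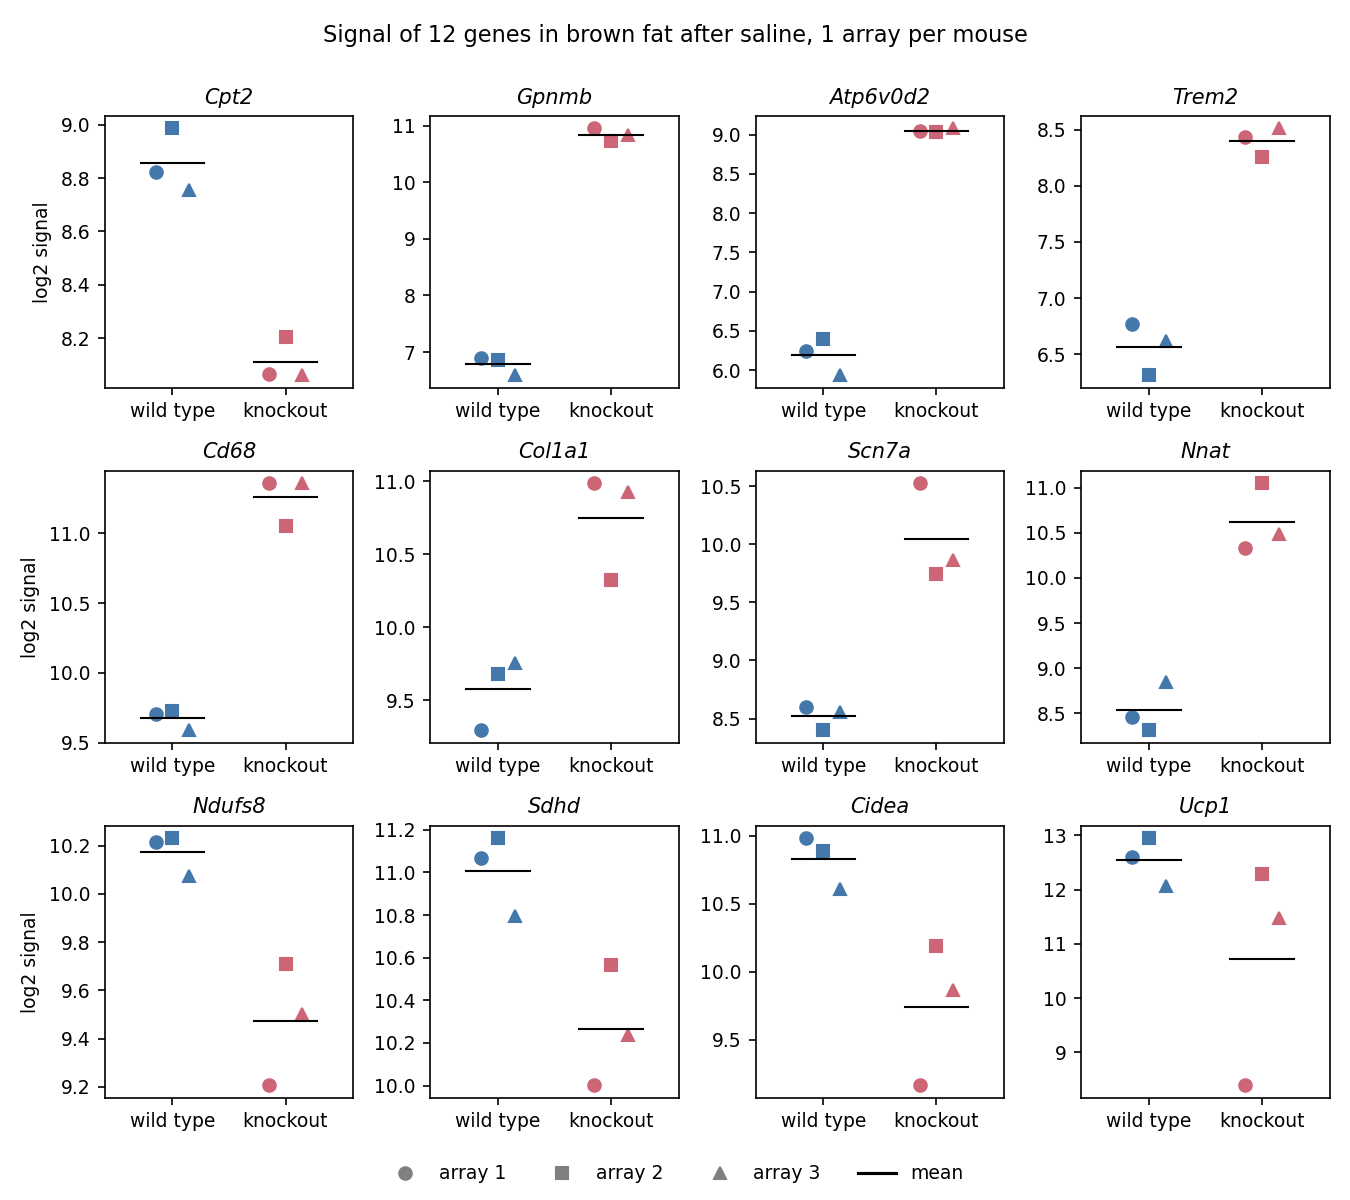
Log2 signal of 12 genes in the 3 wild-type and 3 knockout saline arrays. Each point is 1 mouse, the symbol gives the array number and the line the group mean, and each panel has its own axis. Gpnmb, Atp6v0d2, Trem2 and Cd68 stand clear between genotypes with little spread, and knockout array 1 is the lowest point for Ndufs8, Sdhd, Cidea and Ucp1.

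Mitochondrial genes fell together. Of 49 tested genes of the respiratory chain and ATP synthase 36 fell and 0 rose, with a median of -0.53, while 6.19% of all tested genes fell. Counted by complex, 15 of 17 complex I genes, 4 of 4 of complex II, 5 of 6 of complex III, 8 of 12 of complex IV and 3 of 8 ATP synthase genes fell, and Cycs (cytochrome c) fell as well. Ndufs8, an iron-sulphur subunit of complex I, was at 10.22, 10.23 and 10.07 in wild types and 9.21, 9.71 and 9.50 in knockouts and fell by 0.70 ± 0.11 (adjusted p = 0.00474), 1.63-fold. Sdhd, a membrane anchor of complex II, was at 11.07, 11.16 and 10.80 in wild types and 10.001, 10.56 and 10.24 in knockouts and fell by 0.74 ± 0.13 (adjusted p = 0.00837). In both genes the knockout arrays lay below the wild types in the order 1, 3, 2. Cox10, which makes the heme of complex IV, fell by 0.49 ± 0.08 with signals of 7.59, 7.60 and 7.69 in wild types and 7.05, 7.26 and 7.11 in knockouts. Ndufb3, Sdhb and Ndufs3 fell by 0.68 ± 0.12, 0.58 ± 0.11 and 0.81 ± 0.16. These 6 held, but Sdhd, Ndufb3, Sdhb and Ndufs3 narrowly lost their call when limma fitted the 6 saline arrays alone. Ndufb8 of complex I fell by 0.68 ± 0.14 (adjusted p = 0.0119), a call that ended when knockout array 3 was left out (-0.66).

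The size of the mitochondrial fall varied between the knockout mice. Set against the wild-type mean of each gene, the median of the 49 genes was -0.75 in knockout array 1, -0.31 in array 2 and -0.54 in array 3, against 0.033, 0.13 and -0.14 in the wild types. Array 1 was the lowest knockout for 42 of the 49 genes. In array 2, the nearest to the wild types, 46 of 49 genes lay below the wild-type mean, but so did 44 of 49 in wild-type array 3. Among all 15896 tested genes 9340 lay below it in knockout array 2 and 9399 in wild-type array 3. The count of genes that fell was 10, 40 and 7 without knockout array 1, 2 or 3 and 13, 16 and 33 without wild-type array 1, 2 or 3. The median of the list over those 6 fits ran from -0.64 to -0.42. Cox8b, a subunit of complex IV found in brown fat and muscle, was at 12.01, 12.36 and 12.20 in wild types and 9.79, 11.80 and 11.32 in knockouts and had the lowest difference of the list, -1.22 ± 0.38, but no call (adjusted p = 0.0613). It was called without knockout array 2 (-1.64), with array weights (-1.14) and with the muscle covariate (-1.24), and was at -0.63 with no call without knockout array 1. Atp5g1 (10.62, 10.03 and 12.03 against 10.84, 11.41 and 11.46) followed the order of the muscle signal in the wild types, and its difference of 0.35 ± 0.43 had no call.

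**Figure D3:**
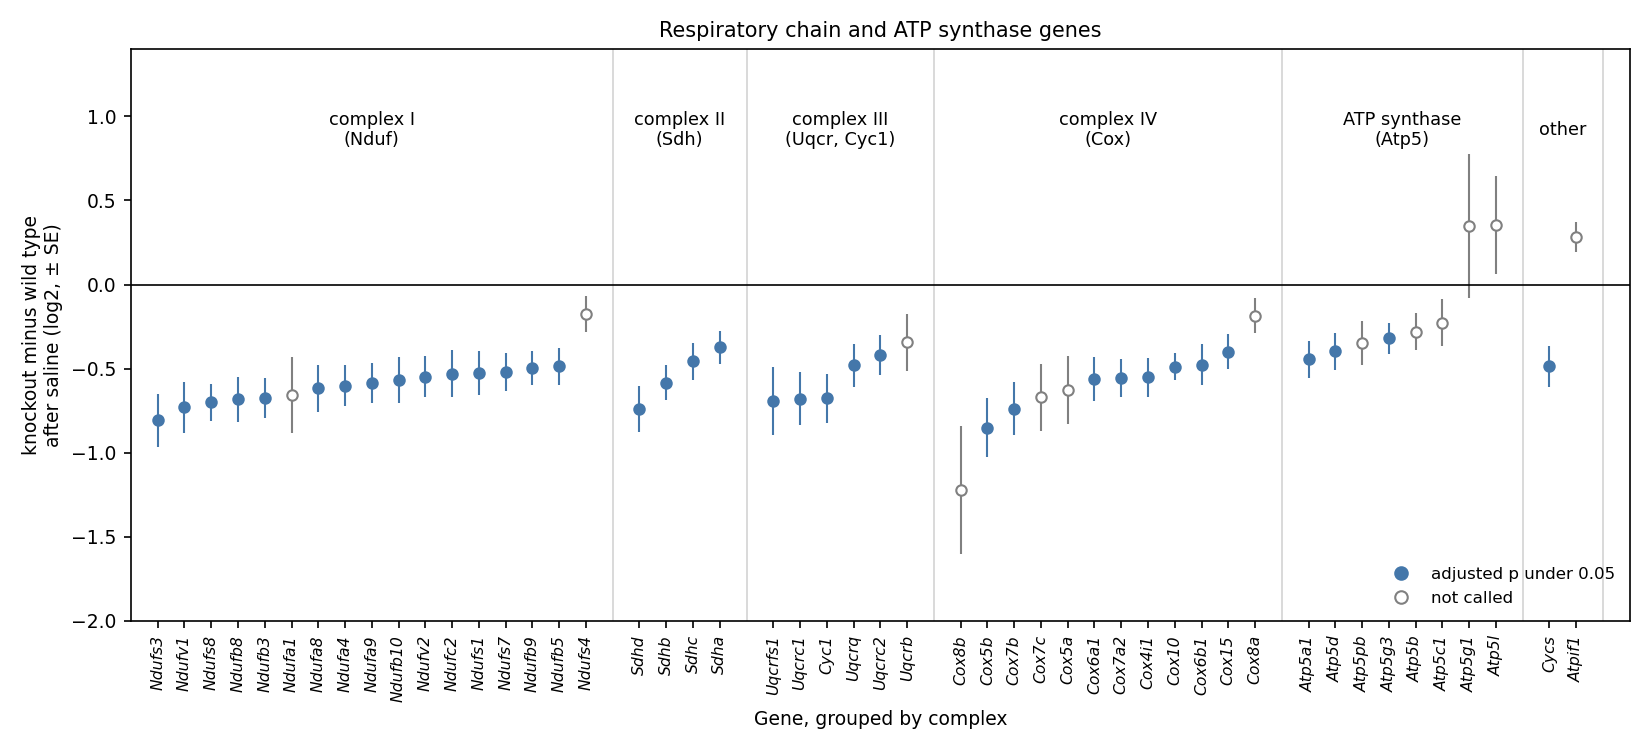
Knockout minus wild-type difference after saline (log2, with its SE, n = 3 per group) of the 49 tested respiratory chain and ATP synthase genes, sorted within each complex. Filled points were called and open points were not. Of these genes 46 lie below 0, and complexes I and II have nearly all their points filled.

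The tricarboxylic acid cycle, mitochondrial translation and import lists also held falls and no rises, and the mitochondrial carriers were mixed. Of 20 tested genes of the tricarboxylic acid cycle list, 4 of them the complex II subunits counted above, 11 fell and 0 rose, with a median of -0.48. The count was 5, 16 and 4 without knockout array 1, 2 or 3 and 4, 5 and 13 without wild-type array 1, 2 or 3. Idh2, the mitochondrial isocitrate dehydrogenase that makes NADPH, was at 9.89, 10.07 and 10.08 in wild types and 9.12, 9.41 and 9.29 in knockouts and fell by 0.74 ± 0.10 (adjusted p = 0.00296). Me3, the mitochondrial malic enzyme, was at 7.48, 7.56 and 7.58 in wild types and 5.99, 6.99 and 6.42 in knockouts and fell by 1.07 ± 0.20. Both held and neither overlapped. Suclg1, a subunit of succinyl-CoA ligase, fell by 0.87 ± 0.19, with no call without knockout array 3 or wild-type array 1 (-0.90 and -0.82).

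Of 37 tested genes of mitochondrial ribosomes and translation 15 fell and 0 rose, with a median of -0.32, and the count was 3, 20 and 3 without knockout array 1, 2 or 3 and 7, 6 and 11 without wild-type array 1, 2 or 3. Tfb2m, a transcription factor for mitochondrial DNA, was at 9.56, 9.61 and 9.53 in wild types and 8.68, 9.19 and 8.76 in knockouts and fell by 0.69 ± 0.11. Mrpl34, a protein of the large subunit, was at 10.90, 10.97 and 10.44 in wild types and 9.55, 10.14 and 9.72 in knockouts and fell by 0.97 ± 0.16 (adjusted p = 0.00613). Both held. Of 30 tested genes of import, dynamics and quality control 9 fell and 0 rose, with a median of -0.30, and the count was 4, 13 and 5 without knockout array 1, 2 or 3 and 5, 6 and 11 without wild-type array 1, 2 or 3. Phb, a scaffold of the inner membrane, fell by 0.62 ± 0.095, the translocase subunit Timm17a by 0.60 ± 0.10, the matrix protease Lonp1 by 0.44 ± 0.078 and the outer-membrane import receptor Tomm20 by 0.55 ± 0.098. These 4 held, although Tomm20 was at -0.30 with no call when the mean of its rows was used. Of 35 tested mitochondrial carriers of the inner membrane 4 rose and 5 fell, with a median of -0.16, and without knockout array 1, 2 or 3 or wild-type array 1, 2 or 3 the number that rose was 1, 3, 0, 0, 1 and 1 and the number that fell 1, 7, 0, 1, 3 and 7. Tfam, which packages mitochondrial DNA, was at -0.23 ± 0.13 (adjusted p = 0.243), and Ppargc1a, the coactivator of mitochondrial genes, at 7.32, 7.45 and 7.07 in wild types and 6.70, 7.87 and 6.97 in knockouts with a difference of -0.11 ± 0.24 (adjusted p = 0.791).

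**Figure D4:**
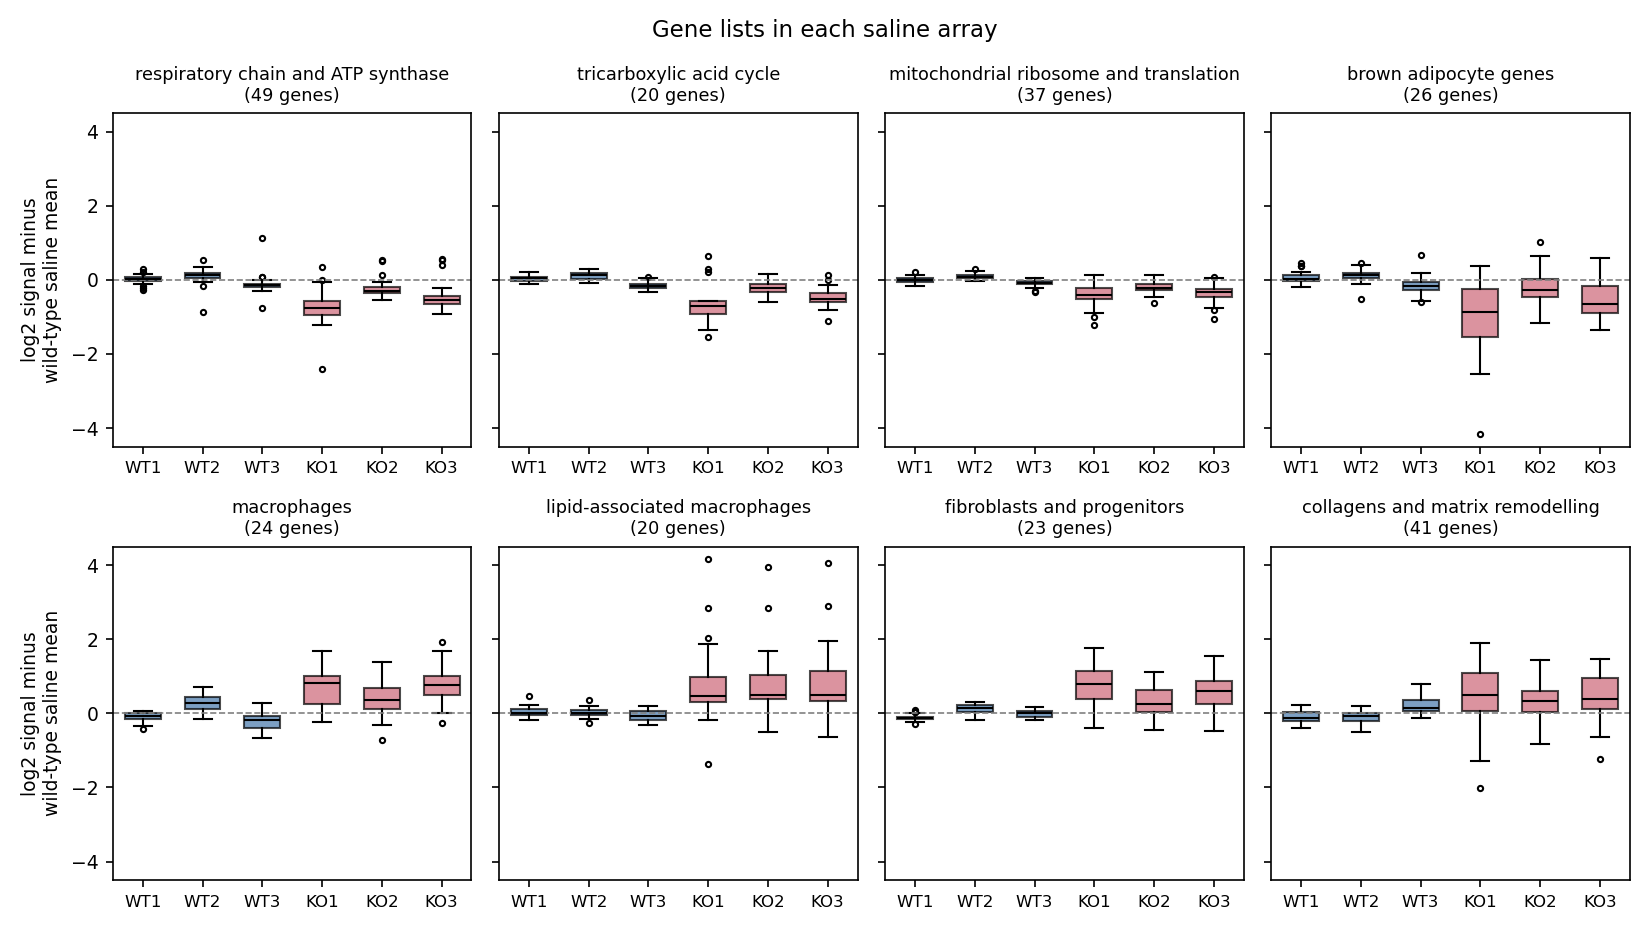
Log2 signal of the tested members of 8 gene lists in each saline array, minus the wild-type saline mean of each gene. Boxes give the quartiles with the median as a line, whiskers reach 1.5 times the box and points lie beyond. The respiratory chain medians are -0.75, -0.31 and -0.54 in knockout arrays 1, 2 and 3, and those of lipid-associated macrophages are 0.47, 0.50 and 0.50.

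The brown adipocyte programme fell in part. Of 26 tested brown adipocyte genes 10 fell and 0 rose, with a median of -0.63, and the count was 5, 15 and 4 without knockout array 1, 2 or 3 and 4, 5 and 11 without wild-type array 1, 2 or 3. Otop1, a proton channel of brown fat, was at 10.49, 10.35 and 9.53 in wild types and 8.16, 8.97 and 8.76 in knockouts and fell by 1.496 ± 0.25 (adjusted p = 0.00598). Letmd1, a mitochondrial protein of brown adipocytes, fell by 0.79 ± 0.13, the mitochondrial deacetylase Sirt3 by 0.66 ± 0.10 and S100b, a calcium-binding protein made by brown adipocytes and by Schwann cells, by 0.87 ± 0.13. These 4 held. Cidea, a lipid droplet protein of brown fat, was at 10.98, 10.89 and 10.61 in wild types and 9.17, 10.19 and 9.86 in knockouts and fell by 1.09 ± 0.26. Elovl3, which lengthens saturated fatty acids, was at 7.30, 6.74 and 6.54 in wild types and 5.73, 6.05 and 5.73 in knockouts and fell by 1.02 ± 0.24. Esrra, the oestrogen-related receptor α, fell by 0.48 ± 0.11 (adjusted p = 0.0195). Calls were lost without knockout array 1 or 3 or wild-type array 1 or 2 for Cidea (-0.80 to -1.15) and Esrra (-0.41 to -0.46), and without knockout array 1 or 3 or wild-type array 1 for Elovl3 (-0.80 to -0.97).

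The best known thermogenic genes had no call with all arrays in the fit. Ucp1 was at 12.60, 12.94 and 12.07 in wild types and 8.39, 12.29 and 11.47 in knockouts. Knockout array 1 was low, and knockout array 2 lay above wild-type array 3, so the groups overlapped. The difference was -1.82 ± 0.76 (adjusted p = 0.142), and leaving out 1 array moved it either way, to -2.61 with a call without knockout array 2 and to -0.66 with no call without knockout array 1. Dio2, which makes active thyroid hormone, was at 8.91, 9.06 and 8.80 in wild types and 6.43, 9.02 and 7.81 in knockouts with a difference of -1.17 ± 0.48 (adjusted p = 0.134), which was -1.80 with a call without knockout array 2 and -0.51 with no call without knockout array 1. Ppara, the lipid-sensing nuclear receptor, was at 10.73, 11.06 and 10.06 in wild types and 9.02, 10.38 and 9.87 in knockouts with a difference of -0.86 ± 0.31 (adjusted p = 0.0962), called without knockout array 2 (-1.17) or wild-type array 3 (-1.14) and at -0.49 with no call without knockout array 1. Prdm16, a regulator of brown adipocyte identity, was at 7.90, 8.11 and 8.07 in wild types and 7.72, 7.72 and 7.56 in knockouts with a difference of -0.36 ± 0.11 (adjusted p = 0.0655). Its arrays did not overlap, and it was called with the mean of its rows (-0.48) and with array weights (-0.35). The developmental markers Zic1 and Lhx8 differed by 0.21 ± 0.098 and 0.33 ± 0.17, neither called (adjusted p = 0.175 and adjusted p = 0.211). The pattern of knockout array 1 was also seen outside this list, since it was the lowest knockout in 537 of the 984 genes that fell and the highest in 485 of the 865 that rose. Array 1 also had the least muscle RNA of the knockouts.

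White adipocyte genes rose. Of 18 tested 7 rose and 0 fell, with a median of 0.33, and the count was 4, 7 and 4 without knockout array 1, 2 or 3 and 4, 6 and 5 without wild-type array 1, 2 or 3. Nnat, the imprinted proteolipid neuronatin, was at 8.46, 8.31 and 8.85 in wild types and 10.34, 11.05 and 10.49 in knockouts and rose by 2.09 ± 0.18 (adjusted p = 0.000282), 4.24-fold. Slc7a10, an amino acid transporter of white fat cells, was at 8.04, 7.96 and 8.31 in wild types and 9.75, 9.39 and 9.18 in knockouts and rose by 1.34 ± 0.19. Retn, the hormone resistin, was at 8.87, 8.69 and 8.90 in wild types and 10.36, 9.51 and 9.61 in knockouts and rose by 1.004 ± 0.20. Nrip1, a corepressor of brown fat genes, rose by 0.64 ± 0.12. These 4 held and the genotypes did not overlap in any of them. Lep, the leptin gene, was at 8.90, 8.79 and 8.81 in wild types and 9.29, 8.62 and 8.72 in knockouts and had no call (0.044 ± 0.18, adjusted p = 0.887). Of 19 general adipocyte genes 3 rose and 1, Aqp7, the glycerol channel of fat cells, fell. Aqp7 fell by 0.43 ± 0.12 and lost its call without knockout array 1 or 3 or wild-type array 1 or 2 (-0.41 to -0.33). Cyp2e1, a cytochrome that is abundant in fat, was at 8.13, 9.02 and 8.81 in wild types and 10.33, 10.27 and 10.07 in knockouts and rose by 1.57 ± 0.19 (adjusted p = 0.00168). Adipoq rose by 0.47 ± 0.11, though its call was lost without knockout array 1 or 3 or wild-type array 1 or 3 (0.41 to 0.47). The adipocyte regulator Pparg (-0.071 ± 0.11) and the droplet coat Plin1 (0.16 ± 0.13) had no call.

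Some fatty acid oxidation genes that act after Cpt2 fell, and the number depended on single arrays. Of 21 tested genes of mitochondrial β-oxidation 5 fell and 1 rose, while 6.19% of all tested genes fell. The median was -0.36, against -0.055 over all tested genes, and 20 of 21 differences were below 0. Signs were also shared within a genotype: in wild-type array 3 21 of 21 lay below the wild-type mean, and in wild-type array 2 20 lay above it. The number that fell was 0, 11 and 0 without knockout array 1, 2 or 3 and 1, 1 and 5 without wild-type array 1, 2 or 3. Acaa2, the thiolase of the last step, was at 11.16, 11.25 and 10.88 in wild types and 9.79, 10.62 and 10.22 in knockouts and fell by 0.89 ± 0.20 (adjusted p = 0.0177), but lost its call without knockout array 1 or 3 or wild-type array 1 or 2 (-0.68 to -0.89). Acadvl, the very long-chain dehydrogenase that acts just after Cpt2, was at 10.46, 10.60 and 10.18 in wild types and 9.20, 10.26 and 9.70 in knockouts with a difference of -0.69 ± 0.21 and no call (adjusted p = 0.0534), and at -0.96 with a call without knockout array 2 and -0.43 with no call without knockout array 1. Of 28 tested peroxisomal genes 5 fell and 1 rose, and the number that fell was 0, 5 and 0 without knockout array 1, 2 or 3 and 1, 2 and 8 without wild-type array 1, 2 or 3. Slc27a2, a peroxisomal very long-chain acyl-CoA synthetase, was at 9.52, 9.78 and 9.28 in wild types and 7.18, 9.05 and 8.10 in knockouts and fell by 1.42 ± 0.36, with no call without knockout array 1 or 3 or wild-type array 1 or 2 (-0.95 to -1.42). Phyh, which starts the α-oxidation of phytanic acid, fell by 0.58 ± 0.12 and lost its call without knockout array 1 or 3 (-0.46 and -0.56). Acot11, a thioesterase of brown fat that splits fatty acyl-CoA, was at 9.27, 8.91 and 8.36 in wild types and 7.35, 7.87 and 7.52 in knockouts and fell by 1.27 ± 0.21 (adjusted p = 0.00598) and held.

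Lipid handling genes split. Lrp1, a receptor for lipoprotein remnants, was at 9.40, 9.67 and 9.61 in wild types and 10.39, 10.37 and 10.35 in knockouts and rose by 0.81 ± 0.10 (adjusted p = 0.00205) and held. Gpd2, the mitochondrial glycerol phosphate dehydrogenase, fell by 0.81 ± 0.14 with signals of 10.85, 10.72 and 10.40 in wild types and 9.72, 10.05 and 9.77 in knockouts, and Agpat3, which acylates lysophosphatidic acid, by 0.40 ± 0.074. The phospholipase Pnpla8 fell by 0.56 ± 0.10. These 3 held, though Gpd2 was at -0.63 and Pnpla8 at -0.24 with no call when the mean of their rows was used. Cidec, the droplet protein of large white fat droplets, rose by 0.68 ± 0.15 (adjusted p = 0.0181), with no call without knockout array 3 (0.69). Of 21 fatty acid synthesis genes 1, Elovl3, was called. Fasn, the synthase, was at 12.30, 11.52 and 11.38 in wild types and 12.39, 11.42 and 11.76 in knockouts, where array 1 was high in both genotypes, and its difference was 0.12 ± 0.29 (adjusted p = 0.807). Scd1, the stearoyl-CoA desaturase, was at -0.026 ± 0.10. By limma 0 of 19 cholesterol synthesis genes were called, at the adjusted p used here, with 13 below 0 and 6 above and a median of -0.09 (2 at an unadjusted p under 0.05).

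Some glucose and amino acid breakdown genes fell alongside, and the numbers depended on single arrays. Among all tested genes 6.19% fell and 5.44% rose. Of 39 tested genes of glucose uptake and glycolysis 9 fell and 3 rose, with a median of -0.26, and the number that fell was 4, 8 and 3 without knockout array 1, 2 or 3 and 4, 4 and 11 without wild-type array 1, 2 or 3. Slc16a1, the lactate and pyruvate transporter Mct1, was at 10.16, 10.12 and 10.36 in wild types and 8.48, 9.23 and 8.93 in knockouts and fell by 1.33 ± 0.16 (adjusted p = 0.00161), 2.51-fold. Pkm, pyruvate kinase, fell by 0.72 ± 0.12 and Pfkl, phosphofructokinase, by 0.72 ± 0.13. Pfkfb3, which makes the activator of phosphofructokinase, moved the other way, with signals of 9.43, 9.20 and 8.74 in wild types and 10.05, 10.34 and 9.94 in knockouts, a rise of 0.99 ± 0.19 (adjusted p = 0.0115). These 4 held. The glucose transporters Slc2a4 (-0.40 ± 0.20, adjusted p = 0.205) and Slc2a1 (-0.33 ± 0.14, adjusted p = 0.140) had no call, nor did Pdk4, the kinase that shuts pyruvate dehydrogenase, at 12.11, 12.16 and 12.13 in wild types and 10.31, 12.58 and 11.95 in knockouts. Of 24 genes of branched-chain amino acid breakdown 6 fell and 0 rose, and the number that fell was 2, 8 and 1 without knockout array 1, 2 or 3 and 4, 4 and 8 without wild-type array 1, 2 or 3. Pccb, a propionyl-CoA carboxylase subunit, fell by 0.58 ± 0.10 and held. Of the antioxidant genes, Gpx4, which removes lipid peroxides, fell by 0.69 ± 0.099 with signals of 12.02, 11.85 and 11.77 in wild types and 11.21, 11.33 and 11.02 in knockouts and the mitochondrial peroxiredoxin Prdx3 by 0.61 ± 0.12. Gsta3, a glutathione transferase, rose by 0.88 ± 0.18. These 3 held.

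Fibroblast and collagen genes rose. Of 23 tested fibroblast and progenitor genes 11 rose and 1 fell, with a median of 0.50, and the number that rose was 10, 15 and 9 without knockout array 1, 2 or 3 and 8, 11 and 11 without wild-type array 1, 2 or 3. Pdgfra, the receptor that marks adipocyte progenitors, was at 7.24, 7.36 and 7.57 in wild types and 8.40, 8.002 and 8.26 in knockouts and rose by 0.83 ± 0.13 (adjusted p = 0.00452). Postn, the matricellular protein periostin, was at 9.33, 9.86 and 9.68 in wild types and 10.80, 10.75 and 11.16 in knockouts and rose by 1.28 ± 0.19. The proteoglycan lumican, Lum, was at 6.10, 6.28 and 6.34 in wild types and 7.99, 7.03 and 7.39 in knockouts and rose by 1.23 ± 0.20. Cd248 rose by 1.07 ± 0.17. The gene that fell was Dlk1, a preadipocyte factor, which fell by 0.44 ± 0.085 with signals of 7.10, 7.16 and 6.93 in wild types and 6.67, 6.61 and 6.60 in knockouts. These 5 held. Of 41 tested collagen and matrix genes 17 rose and 2 fell, with a median of 0.38, and the number that rose was 9, 19 and 9 without knockout array 1, 2 or 3 and 9, 13 and 17 without wild-type array 1, 2 or 3. Col1a1 was at 9.29, 9.68 and 9.75 in wild types and 10.99, 10.32 and 10.93 in knockouts and rose by 1.17 ± 0.19, and Col1a2 by 1.28 ± 0.19 (adjusted p = 0.00350); the pair makes type I collagen. Col15a1 of the basement membrane zone was at 8.35, 8.51 and 8.61 in wild types and 9.57, 9.36 and 9.57 in knockouts and rose by 1.01 ± 0.099 (adjusted p = 0.000583). Timp2, an inhibitor of matrix proteases, and the protease Mmp2 rose by 1.02 ± 0.15 and 1.13 ± 0.19. Col12a1, of collagen fibril surfaces, fell by 1.35 ± 0.27 with signals of 9.06, 9.001 and 9.72 in wild types and 7.25, 8.46 and 8.04 in knockouts. These 6 held. In Col1a1, Col1a2 and Timp2 knockout array 2 was the lowest of the knockouts and still above every wild type.

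Other immune genes did not all follow the macrophage genes. Of the 5 largest rises 4 were immunoglobulin kappa variable genes, which plasma cells and B cells express. One of them, Igkv6-25, was at 5.88, 6.76 and 5.86 in wild types and 9.32, 11.72 and 10.71 in knockouts and rose by 4.42 ± 0.59 (adjusted p = 0.00266) and held. Such segments are near copies of each other, so which of them the probes read is uncertain. At least 1 wild-type array of each of the other 3 lay below the signal floor, the 25th percentile of the named genes on an array, so their fold sizes are uncertain. With all wild-type arrays below it, 2 of them were at least 11.7-fold and at least 10.1-fold higher in knockouts, the mean of the knockouts against the mean floor of the wild-type arrays, and the second lost its call without knockout array 3 or wild-type array 1 (fitted differences of 4.09 and 4.52). The B cell receptor gene Cd79a was at 6.33, 7.56 and 5.997 in wild types and 6.01, 6.86 and 7.58 in knockouts, with no call (adjusted p = 0.876). Of 20 tested T, B and NK cell genes 3 rose and 0 fell, and the count was 2, 4 and 2 without knockout array 1, 2 or 3 and 2, 6 and 2 without wild-type array 1, 2 or 3. Their mean log2 signal was 6.11, 6.81 and 5.92 in wild types and 6.61, 6.55 and 7.15 in knockouts, so wild-type array 2 lay above knockout arrays 1 and 2. Il7r, the interleukin 7 receptor, was at 6.86, 7.94 and 6.84 in wild types and 9.28, 9.26 and 9.42 in knockouts and rose by 2.10 ± 0.36 (adjusted p = 0.00640), and Ncr1, a receptor of natural killer cells, was at 5.96, 6.93 and 5.73 in wild types and 7.54, 7.40 and 7.83 in knockouts and rose by 1.38 ± 0.25, and both held. Klrd1 rose by 1.19 ± 0.27, with 2 of 3 wild-type arrays below the floor and no call without knockout array 1 or 3 or wild-type array 1 or 3 (1.02 to 1.20).

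Interferon genes rose in part, 6 of 31 tested (5.44% of all tested genes rose) with 1 lower and a median of 0.40. The mean log2 signal of the 31 was 7.98, 8.57 and 7.82 in wild types and 8.22, 8.70 and 8.69 in knockouts. Wild-type array 2 thus lay above knockout array 1. The number that rose was 6, 5 and 2 without knockout array 1, 2 or 3 and 2, 10 and 3 without wild-type array 1, 2 or 3. Oas2, which senses double-stranded RNA, was at 6.99, 7.30 and 7.20 in wild types and 8.29, 8.42 and 8.73 in knockouts and rose by 1.31 ± 0.23, and Ifi27l2a rose by 1.27 ± 0.22, and both held. The gene that fell was Gbp2, a guanylate-binding protein, at 10.75, 11.49 and 10.43 in wild types and 9.75, 9.80 and 10.05 in knockouts; it fell by 1.02 ± 0.23 (adjusted p = 0.0185), a call that ended when knockout array 1 was left out (-0.96). Of 31 tested acute inflammation genes 6 fell and 0 rose, with a median of -0.33, while 6.19% of all tested genes fell. The number that fell depended on single arrays. It was 0, 2 and 2 without knockout array 1, 2 or 3 and 0, 1 and 1 without wild-type array 1, 2 or 3. Ccl2, the monocyte chemokine, was at 10.05, 10.06 and 10.52 in wild types and 7.69, 9.06 and 9.27 in knockouts and fell by 1.54 ± 0.42 (adjusted p = 0.0376). Its call was lost without knockout array 1 (-1.04) or any wild-type array (-1.38 to -1.62). S100a8 and S100a9, the calgranulins of neutrophils, fell by 1.70 ± 0.44 and 1.43 ± 0.40. S100a8 was at 7.97, 7.74 and 9.41 in wild types and 6.26, 6.51 and 7.24 in knockouts, highest in wild-type array 3. Without wild-type array 3 the differences were -1.19 and -0.98 with no call, and S100a8 was called only without wild-type array 2 among the 6 such fits, S100a9 in none. Il6 lay below the filter.

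Some nerve and epithelial genes also differed, while 5.44% of all tested genes rose and 6.19% fell. Of 15 tested Schwann cell and nerve genes 4 rose and 1, S100b, fell. With 1 saline array left out, 2 to 4 rose. The list members Sox10 and Gfra3 rose but did not hold. Sox10 lost its call without knockout array 1 or 3 or wild-type array 1 or 2 (0.62 to 0.72). Gfra3 lost its call without knockout array 1 or 2 or wild-type array 1 or 3 (0.41 to 0.53). Scn7a, a sodium-sensing channel of glia, was at 8.60, 8.40 and 8.56 in wild types and 10.52, 9.75 and 9.86 in knockouts and rose by 1.53 ± 0.19 (adjusted p = 0.00177), 2.88-fold, and Cdh19, a cadherin of Schwann cell precursors, rose by 1.20 ± 0.21 with signals of 5.34, 5.77 and 5.07 in wild types and 6.97, 6.54 and 6.28 in knockouts; both held, with 2 of 3 wild-type arrays of Cdh19 below the floor. Of 18 gland and skin epithelium genes 3 rose and 0 fell, with a median of 0.63, but the count was 0 without knockout array 1 or 3 or wild-type array 1 or 2, 10 without knockout array 2 and 5 without wild-type array 3. The mean log2 signal of the 18 was 6.19, 6.03 and 6.57 in wild types and 6.99, 6.44 and 7.29 in knockouts, so wild-type array 3 lay above knockout array 2. Krt19 rose by 1.33 ± 0.35 and Epcam by 1.01 ± 0.30. Both calls were lost without knockout array 1 or 3 or wild-type array 1 or 2 (1.05 to 1.31 and 0.75 to 0.999). Cxcl15, a chemokine of epithelia, was at 6.04, 5.46 and 6.13 in wild types and 7.68, 8.11 and 7.61 in knockouts and rose by 1.93 ± 0.39 (adjusted p = 0.0132) and held. The part of epithelium in the pad in these values was not tested. Endothelial genes had 0 calls by limma among 23, with 6 at an unadjusted p under 0.05 and a median of -0.07.

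Among stress lists limma called 0 of 24 endoplasmic reticulum stress genes and 0 of 13 cytosolic heat shock genes, against 5 and 0 at an unadjusted p under 0.05. Of 35 integrated stress response genes 1 rose and 2 fell, with a median of -0.14. Atf4, its central factor, was at 8.87, 8.49 and 8.76 in wild types and 8.60, 8.93 and 8.79 in knockouts with a difference of 0.066 ± 0.11 (adjusted p = 0.707). Ddit3 (-0.10 ± 0.13, adjusted p = 0.607), Atf3 (0.40 ± 0.18, adjusted p = 0.168) and the hormone Fgf21 (-0.14 ± 0.11, adjusted p = 0.393) had no call either. Atf3 was called without wild-type array 3 (0.64). Gdf15 had no value here.

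Some growth factor and insulin pathway genes changed, while 5.44% of all tested genes rose and 6.19% fell. Of 40 tested genes of secreted hormones and growth factors 8 rose and 1 fell. With 1 saline array left out, 3 to 14 rose and 0 to 2 fell. Of 23 tested insulin signalling genes 4 rose and 2 fell, and with 1 saline array left out 2 to 4 rose and 1 to 2 fell. Fgf10, a growth factor for preadipocytes, was at 5.50, 5.30 and 5.55 in wild types and 6.94, 7.44 and 7.05 in knockouts and rose by 1.69 ± 0.16 (adjusted p = 0.000522), with 2 of 3 wild-type arrays below the floor. Irs1, the adaptor of the insulin receptor, was at 7.82, 7.91 and 7.85 in wild types and 8.67, 9.63 and 9.11 in knockouts and rose by 1.27 ± 0.23 (adjusted p = 0.00792), with all knockouts above the wild types and more spread among them. Grb14, an inhibitor of the insulin receptor, was at 8.43, 8.06 and 8.22 in wild types and 7.005, 7.58 and 7.45 in knockouts and fell by 0.89 ± 0.17 (adjusted p = 0.0113). These 3 held. Adcy3, the adenylyl cyclase of brown fat, was at 8.38, 8.47 and 8.19 in wild types and 7.63, 7.74 and 7.57 in knockouts and fell by 0.70 ± 0.095 (adjusted p = 0.00273) and held. Alas2, the erythroid enzyme of heme synthesis, fell by 0.89 ± 0.16 with signals of 7.44, 7.81 and 7.29 in wild types and 6.56, 6.45 and 6.87 in knockouts and Ccnd2, a cyclin of the G1 phase, rose by 0.78 ± 0.10 with signals of 8.09, 8.31 and 8.24 in wild types and 9.10, 8.91 and 8.99 in knockouts, and both held.

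The other largest rises were in Catspere2 (4.72 ± 0.72), with 2 of 3 wild-type arrays below the floor, and in the membrane peptidase Anpep, which was at 7.92, 8.28 and 7.82 in wild types and 10.38, 9.81 and 10.08 in knockouts and rose by 2.08 ± 0.17 (adjusted p = 0.000275). Cd300ld3, of a family of receptors on myeloid cells, rose by 2.01 ± 0.30 and Hpgds, the prostaglandin D synthase of macrophages and mast cells, by 1.96 ± 0.20 with signals of 6.08, 6.31 and 5.55 in wild types and 8.19, 7.56 and 8.07 in knockouts. These 4 held. Gm6545 rose by 1.91 ± 0.55, but its call was lost in each of the 6 fits that left out an array (1.56 to 2.29). The largest fall was in 9130214F15Rik, at 8.67, 9.25 and 8.37 in wild types and 5.38, 6.83 and 6.28 in knockouts, which fell by 2.60 ± 0.35 (adjusted p = 0.00266), 6.06-fold. Kng2, a kininogen, had all knockout arrays below the floor and was at least 2.45-fold lower in knockouts, the mean of the wild types against the mean floor of the knockout arrays (adjusted p = 0.00810). The transcripts 2310015D24Rik and 2810030D12Rik fell by 1.56 ± 0.32 and 1.31 ± 0.15. P2rx5, an ATP-gated channel that marks brown fat cells, was at 9.97, 9.997 and 9.82 in wild types and 8.43, 9.001 and 8.62 in knockouts and fell by 1.25 ± 0.15 (adjusted p = 0.00169). Gldn, gliomedin of peripheral nerve nodes, fell by 1.24 ± 0.22. These 6 held, and Gm7247 fell by 1.31 ± 0.28 and lost its call without knockout array 1 or 3 or wild-type array 1 (-1.20, -1.25 and -1.28).

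Most of these differences were also present in the other 6 arrays of the series, from mice given CL316243, which share no array with the saline comparison but share the estimate of the spread. There 4685 genes (29.5%) differed between genotypes. Of the 1849 genes called after saline 1236 were called in the same direction there, 66.8% of the saline calls and 26.4% of the CL316243 calls, 25 were called in the opposite direction and 91.8% had the same sign. Of the genes that rose after saline 75.6% were called higher there too, and of those that fell 59.1% were called lower. Among all tested genes 14.7% were called higher there and 14.8% lower, and the share with the same sign was not counted for them. Gpnmb differed by 3.90 ± 0.17 there and Atp6v0d2 by 2.84 ± 0.18, close to the 4.06 ± 0.17 and 2.86 ± 0.18 after saline. The respiratory chain list had a median of -0.75 there and the brown adipocyte list one of -1.22, against -0.53 and -0.63 after saline. Other lists did not keep their difference. Of the 31 acute inflammation genes 13 were called higher there and 0 lower, with a median of 0.56 against -0.33 after saline. Of the 33 lysosomal genes 10 were called higher there and 5 lower, with a median of 0.043 against 0.23 after saline.

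The genotype difference itself depended on the injection in 324 genes (2.04%) by the interaction test, 60 of them among the saline calls. Of these 60, 17 were larger after CL316243 in the same direction and 43 had the opposite sign there, whether or not they were called there. Irs1 differed by 1.27 ± 0.23 after saline and by -0.39 ± 0.23, with no call, after CL316243 (interaction -1.67 ± 0.32, adjusted p = 0.0265). Gbp2 went from -1.02 ± 0.23 to 0.81 ± 0.23 (interaction 1.83 ± 0.32, adjusted p = 0.0186). Lipa, the acid lipase, went from 0.51 ± 0.097 to -0.36 ± 0.097 (interaction -0.87 ± 0.14, adjusted p = 0.0112). Elovl3 and Adcy3 were lower in knockouts under both injections, with larger differences after the agonist (-2.91 ± 0.24 and -1.84 ± 0.095, interactions -1.89 ± 0.34 and -1.15 ± 0.13, adjusted p = 0.0200 and adjusted p = 0.00270). Prdm16 and Ppargc1a, without a call after saline, were at -2.30 ± 0.11 and -1.64 ± 0.24 after CL316243, with interactions of -1.95 ± 0.16 and -1.54 ± 0.33 (adjusted p = 0.000226 and adjusted p = 0.0433).

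**Figure D5:**
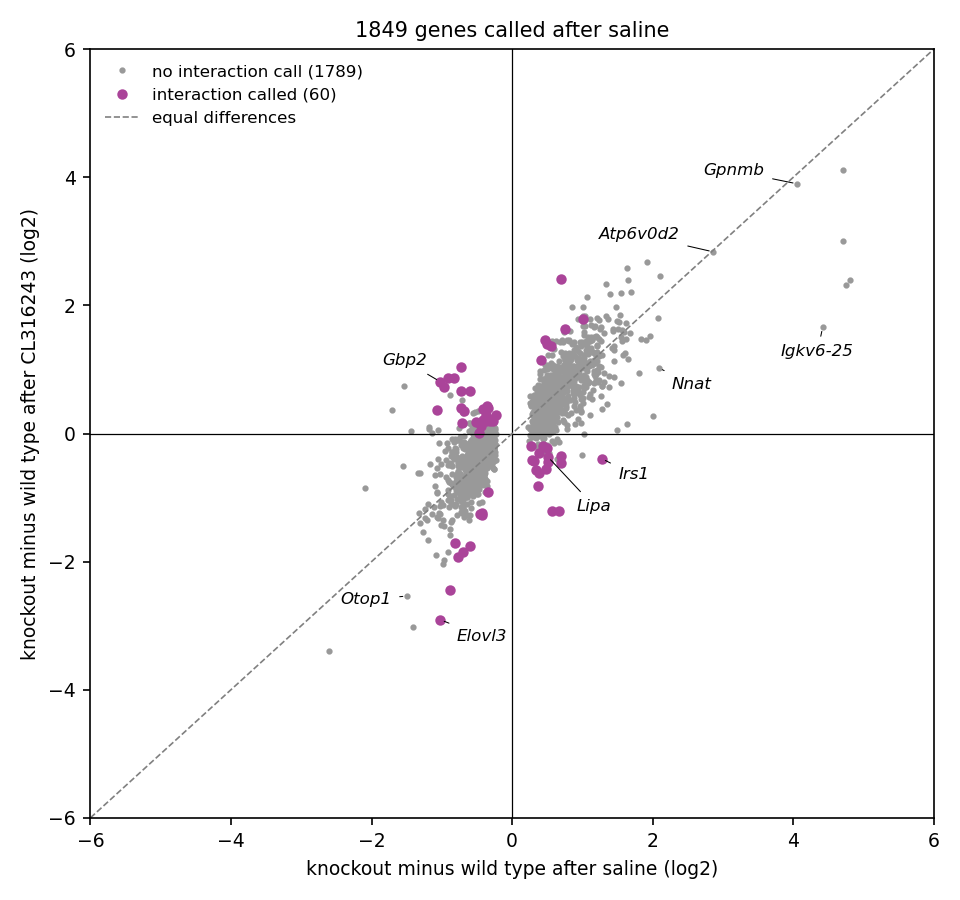
Knockout minus wild-type difference (log2) after saline (horizontal axis) and after CL316243 (vertical axis) for the 1849 genes called after saline, with 3 mice per group. The dashed line marks equal differences and purple points the 60 genes whose interaction was called. Gpnmb and Atp6v0d2 lie near the line. Irs1, Lipa and Gbp2 have the opposite sign after CL316243, with a call there for Lipa and Gbp2 but not for Irs1.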

How the data were processed

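RNA from 12 brown fat pads, 1 mouse per array, was hybridised to mouse exon arrays after extraction with Trizol and RNeasy columns and labelling with an Ambion kit, per the labels' protocols. The deposited values are log2 signals per transcript cluster, normalized by the authors with RMA in Partek against mm9, per the submitters' processing notes; versions are not given in the sources used here. Each column was already normalized and arrays carry no read depth, so the number of arrays limits the precision.

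Of 115830 rows, 25539 belonged to 1 gene in the platform annotation, 2300 belonged to several and were not named, and 87991 were not listed there. They gave 20259 genes, 3109 of them with several rows, and 19800 were found in the RefSeq table by gene ID. A gene was tested when above the 25th percentile of the named genes in at least 3 arrays. Limma 3.58.1 in R 4.3.3 fitted 1 mean per group over all 12 arrays, so that the 4 groups share the estimate of the spread (8 residual and 3.14 prior degrees of freedom), with Benjamini-Hochberg adjustment over 15896 genes. Interactions are the genotype difference after CL316243 minus that after saline. On simulated data for the saline comparison, with 200 of 15896 genes changed, 92% of changes of 1 on the log2 scale and 34% of changes of 0.5 were recovered. The simulated noise was independent for each gene, without the shifts that many genes of an array share here, and fewer genes changed than were called. These rates may therefore not hold for the real arrays.

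The members and the 46 gene lists (1044 of 1191 genes with a row of their own) were chosen with earlier results of these data known. Named genes were the 15 largest rises and falls among called genes without overlap and above the signal floor in the higher group, up to 6 called members per list by lowest adjusted p, and a panel of 30 genes. Genes named only as members of a count or a motif match carry no values of their own, and another 17 genes were given values after these were seen: Lhx8, Acta1, Slc25a20, Crat, Mmp12, Csf1r, Ctsd, Mitf, Tfeb, Atp5g1, Tfam, Zic1, Plin1, Acadvl, Dlk1, Mmp2 and Cd79a. The arrays left out in turn for each list were chosen after seeing the data. The labels do not say that mice came from separate litters or cages, and p-values measure the spread between these mice. Other alternatives were array weights, quantile normalization, median centring, a filter at the 50th percentile or none, the mean of a gene's rows, trended and robust moderation, the 6 saline arrays alone, a muscle covariate and the replicate number as a block. Motif counts and tables used Python 3.11.15 with pandas 2.3.3, and figures matplotlib 3.10.9.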

Additional observations from a re-analysis of the deposited data

Results flagged for a closer look

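The following results stood out because the difference between knockout and wild type was not the same after saline and after CL316243, by limma's interaction test. It was called in 324 of 15896 genes. Values are the genotype difference after CL316243 minus that after saline on the log2 scale. Prdm16 was at -1.95, Elovl3 at -1.89, Irs1 at -1.67, Ppargc1a at -1.54 and Atf3 at -1.53. Adcy3 was at -1.15, Gpd2 at -0.90, Lipa at -0.87, Aqp7 at -0.84 and Slc3a2, the heavy chain of amino acid transporters, at -0.70. Positive values were found for Gbp2 (1.83), Lrat, which esterifies retinol (1.27), Slc25a28, the mitochondrial iron carrier mitoferrin 2 (0.78), and Col15a1 (0.77). Slc3a2 and Lrat were called after saline (0.28 ± 0.075 and -0.60 ± 0.18), but neither call was kept in any of the 6 fits that left out a saline array. Single arrays could not be tested as outliers in groups of 3.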

How the results depend on the processing

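The direction of each gene that the naming rule picked and that was called after saline was kept under every alternative. Over the arrays left out in turn, 794 of 1140 values of these 190 genes kept the call and 346 lost it, and over the other alternatives 1729 of 1893 kept it and 164 lost it. Of the 17 genes added later 6 were called, with 28 of 36 and 57 of 60 values that kept the call and 0 changes of sign. With a saline array left out, the count of called genes ran from 581 to 2101 (329 to 1067 higher and 248 to 1034 lower), interactions from 175 to 302, genes called under both injections in the same direction from 457 to 1502 and genes called after CL316243 from 4281 to 4693. With array weights the counts were 3400 after saline (1451 higher, 1949 lower), 976 interactions and 2178 shared. The filter at the 50th percentile gave 497 interactions. With the 6 saline arrays alone, which leaves fewer arrays for the spread, 604 genes were called, 338 higher and 266 lower. Genes that held but had no call there include Sdhd, Ndufb3, Sdhb, Ndufs3, Otop1, Me3, Tfb2m, Mrpl34, Mmp2, Col12a1, Retn, Nrip1, Prdx3, Gsta3, Pccb and Ncr1. Genes of the rule without a call changed sign in 11 values, 10 of them with 1 array left out, and the added ones in 8, 7 of them with 1 array left out. Ppargc1a ran from -0.45 to 0.13 and was at 0.13 without knockout array 1 and 0.00054 without array 3. Lep ran from -0.16 (without knockout array 1) to 0.17, and Pdk4 from -1.004 to 0.13 (without knockout array 1). Atf4 ran from -0.041 (without wild-type array 2) to 0.15, with -0.014 without knockout array 2. Fasn ran from -0.15 (without knockout array 1) to 0.405, with -0.056 without wild-type array 3 and -0.014 with array weights. Scd1 ran from -0.0986 to 0.059 (without wild-type array 1), with 0.00977 without knockout array 2. Of the added ones, Acta1 (0.039) was at -0.43 and -0.38 without knockout array 2 or 3, -1.02 without wild-type array 2 and -0.059 with the muscle covariate, Atp5g1 (0.35) at -0.085 without wild-type array 2, Cd79a (0.19) at -0.19 without knockout array 3 and -0.13 without wild-type array 3, and Tfeb (0.034) at -0.023 without wild-type array 2. The cause was not tested for any of these. The replicate number as a block gave 1758 called genes. Same-numbered saline arrays had deviations that correlated at 0.269, -0.298 and 0.376. Such values, from 3 arrays per group, cannot show whether the numbers pair the mice, and the main fit did not treat them as pairs. With 3 mice per group, a gene without a call may still differ.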
